A study of Mus musculus with 12 samples.

Results

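Nefh, Emid1, Kremen1 and Slc35e4 are 4 of the 55335 genes counted in thymocytes of mice with and without the miR-181a/b-1 microRNA genes. They lie on chromosome 11 and were picked as neighbours of Nefh that the authors' deposited comparison listed as changed in the knockout in at least 1 assay. They were thus chosen by their KO against WT difference in these same libraries, so that difference is given below as a description without a test. Thymocytes, the developing T cells of the thymus, were taken from mice aged 6 weeks, 3 wild type (WT) and 3 knockout (KO) for miR-181a/b-1. All groups shared the same handling: pathogen-free housing, a 70 µm strainer, and cycloheximide at 0.1 mg/ml, which holds ribosomes in place on mRNA. RNA-seq, which counts transcripts, and ribosome footprinting, which counts the mRNA pieces shielded by ribosomes, each gave 3 WT and 3 KO libraries. The labels name neither the mouse strain nor the kind of knockout allele, and do not tie a library of one assay to a library of the other. Whole-thymus suspensions of this kind can carry RNA from cells other than thymocytes.

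The 4 genes have unrelated known roles. Nefh encodes the heavy subunit of neurofilaments, the intermediate filaments that fill axons of neurons. Kremen1 encodes a surface receptor for Dickkopf proteins, and together they take the Wnt co-receptors Lrp5 and Lrp6 off the cell surface; the gene is known for a part in the development of thymic epithelium. Emid1 encodes a secreted protein with an EMI domain and collagen-like stretches. Slc35e4 belongs to the SLC35 family of nucleotide-sugar transporters, and its own cargo is not established. MicroRNAs of the miR-181 family are abundant in thymocytes, where they are known to tune T cell receptor signalling.

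The mature microRNAs of the miR-181a/b-1 pair are shown because KO and WT are named by the genes of that pair. Other miR-181 genes of the mouse genome encode the same or like microRNAs. Both microRNAs of the pair come from chromosome 1, and the 4 genes lie on chromosome 11. RefSeq (GRCm38.p6) gives these sequences, in which capitals mark the seed, bases 2 to 8, by which a microRNA pairs with its targets. Both members of the pair carry one seed.
mmu-miR-181a-5p: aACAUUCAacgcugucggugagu
mmu-miR-181b-5p: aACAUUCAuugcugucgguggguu
In footprint libraries, reads of Mir181a-1 numbered 1535 to 2898 in each WT library and 4 to 16 in each KO library, a mean of 148 ± 16.8 against 0.828 ± 0.317 CPM (SD, n = 3 each). CPM, the unit of all levels given here, are a gene's reads scaled to the library's total. In RNA-seq a WT library had 7 to 25 of them and a KO library 10 to 41, so that assay does not tell the genotypes apart at this gene.

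RefSeq promoter sequence was at hand for Emid1 and Slc35e4, 2 of the 4 genes. The 250 bases before each start are shown because these genes differed between genotypes in opposite directions; capitals mark every CG dinucleotide, which reads CG on both strands.
Emid1, chr11:5152231-5152480, minus strand: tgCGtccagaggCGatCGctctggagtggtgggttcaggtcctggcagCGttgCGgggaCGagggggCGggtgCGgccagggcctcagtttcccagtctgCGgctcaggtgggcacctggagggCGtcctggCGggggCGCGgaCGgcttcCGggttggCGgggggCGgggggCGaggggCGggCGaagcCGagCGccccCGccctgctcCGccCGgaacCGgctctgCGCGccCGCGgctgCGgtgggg
Slc35e4, chr11:3914665-3914914, minus strand: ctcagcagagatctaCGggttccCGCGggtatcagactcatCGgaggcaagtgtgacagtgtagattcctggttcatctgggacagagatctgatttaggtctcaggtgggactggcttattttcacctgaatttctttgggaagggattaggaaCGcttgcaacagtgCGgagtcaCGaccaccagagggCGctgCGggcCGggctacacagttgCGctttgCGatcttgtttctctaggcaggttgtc
The Emid1 window held 31 CG dinucleotides and 77.6% G or C. Among 32851 promoter windows of that length, 5.19% held at least as many, and the median was 6. A second annotated Emid1 start had 6 CG dinucleotides before it. The Slc35e4 window held 12, a number reached or passed by 33.5% of promoters, with 53.6% G or C.

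Gene counts summed to 4479182 to 8180286 reads in the RNA-seq libraries and to 4069968 (KO 3) to 17859770 in the footprint libraries. Thymocyte markers were abundant in every library: the summed level of 12 of them in RNA-seq lay at 12957 to 14724 CPM for WT and 12671 to 14052 CPM for KO. Within each assay, a WT and a KO library with the same number deviated from their group means in opposite directions, with correlations of -0.96 to -0.92 over 9756 genes in RNA-seq and -0.99 to -0.98 over 8652 genes in footprints. The authors call these counts adjusted, without saying how. The SDs and adjusted p-values given here may therefore not measure the spread between mice. When the fit blocked on the replicate number, the calls of neighbours and of related gene families named below were lost in RNA-seq. In footprints those of Tcn2, Mrps24, Vim, Wls and Slc35b1 were kept and the rest lost.

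Nefh was the gene with the largest loss among the 4. In RNA-seq, Nefh stood at 4.61, 4.46 and 5.10 CPM in WT libraries 1 to 3 (29, 32 and 37 reads) and at 0.439, 0.237 and 0.125 CPM in the KO libraries (3, 1 and 1 reads). In footprints it stood at 18.3, 16.7 and 17.3 CPM in WT (320, 298 and 183 reads) and at 1.30, 1.62 and 1.72 CPM in KO (14, 25 and 7 reads). Every KO library lay below every WT library in both assays, with a wide gap. Group means were 4.72 ± 0.33 against 0.267 ± 0.159 CPM in RNA-seq and 17.4 ± 0.83 against 1.55 ± 0.22 CPM in footprints (SD, n = 3). From the pooled reads, KO kept 5.54% of the WT level in RNA-seq, a WT-to-KO ratio of 18.0 with an exact 95% interval of 7.48 to 56.8, and 8.71% in footprints, a ratio of 11.5 (8.52 to 15.8). These intervals cover counting error only. The fitted log2 fold change was -4.08 (SE 0.28) in RNA-seq and -3.51 (SE 0.11) in footprints. By size these were places 17 of 13652 and 23 of 13509 genes. With 5 KO reads in all, the RNA-seq value is loose: it was -4.70 without KO library 1 and -3.64 without KO library 3. In bulk samples, fewer cells of a type that holds a transcript and less of it per cell cannot be told apart.

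Kremen1 had many reads in both assays and was lower in all KO libraries. Its RNA-seq level was 506, 413 and 478 CPM in the WT libraries (3186, 2962 and 3473 reads) and 156, 192 and 163 CPM in the KO libraries (1065, 810 and 1310 reads). In footprints it was 123, 112 and 119 CPM in WT and 36.4, 40.0 and 37.6 CPM in KO, from 153 to 2145 reads a library. The groups were far apart, and the share of the WT level left in KO was alike in both assays. That share was 36.0% in RNA-seq and 32.6% in footprints, with ratios KO to WT of 0.360 (0.345 to 0.374) and 0.326 (0.306 to 0.348). The log2 fold change was -1.46 (SE 0.11) in RNA-seq and -1.63 (SE 0.06) in footprints.

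Emid1 was lower in KO by a like amount, with more scatter in footprints. RNA-seq gave 38.0, 43.9 and 43.2 CPM in WT (239, 315 and 314 reads) and 18.6, 15.4 and 16.0 CPM in KO (127, 65 and 128 reads). Footprints gave 39.3, 33.5 and 26.2 CPM in WT (686, 599 and 276 reads) and 8.07, 10.4 and 14.0 CPM in KO (87, 160 and 57 reads). The footprint values show the mirrored pattern of the adjusted counts: the WT library highest for Emid1 shares its number with the lowest KO library, and the reverse. The genotypes still did not overlap. The KO to WT ratio was 0.400 (0.351 to 0.456) in RNA-seq and 0.296 (0.260 to 0.334) in footprints, with log2 fold changes of -1.32 (SE 0.10) and -1.71 (SE 0.21).

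Slc35e4 was the one of the 4 that was higher in KO, from a level near the detection limit in WT. RNA-seq gave 0.477, 0.139 and 0.413 CPM in WT (3, 1 and 3 reads) and 2.93, 3.79 and 2.99 CPM in KO (20, 16 and 24 reads). Footprints gave 0.229, 1.01 and 0.663 CPM in WT (4, 18 and 7 reads) and 3.15, 1.62 and 2.45 CPM in KO (34, 25 and 10 reads). In RNA-seq the groups were far apart, while in footprints the highest WT library lay close under the lowest KO library. The KO to WT ratio was 9.31 (4.25 to 24.1) in RNA-seq and 3.61 (2.31 to 5.78) in footprints. Log2 fold changes were 3.15 (SE 0.31) and 1.85 (SE 0.49), and the footprint value ran from 1.38 without WT library 1 to 2.51 without WT library 2.

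**Figure D1:**
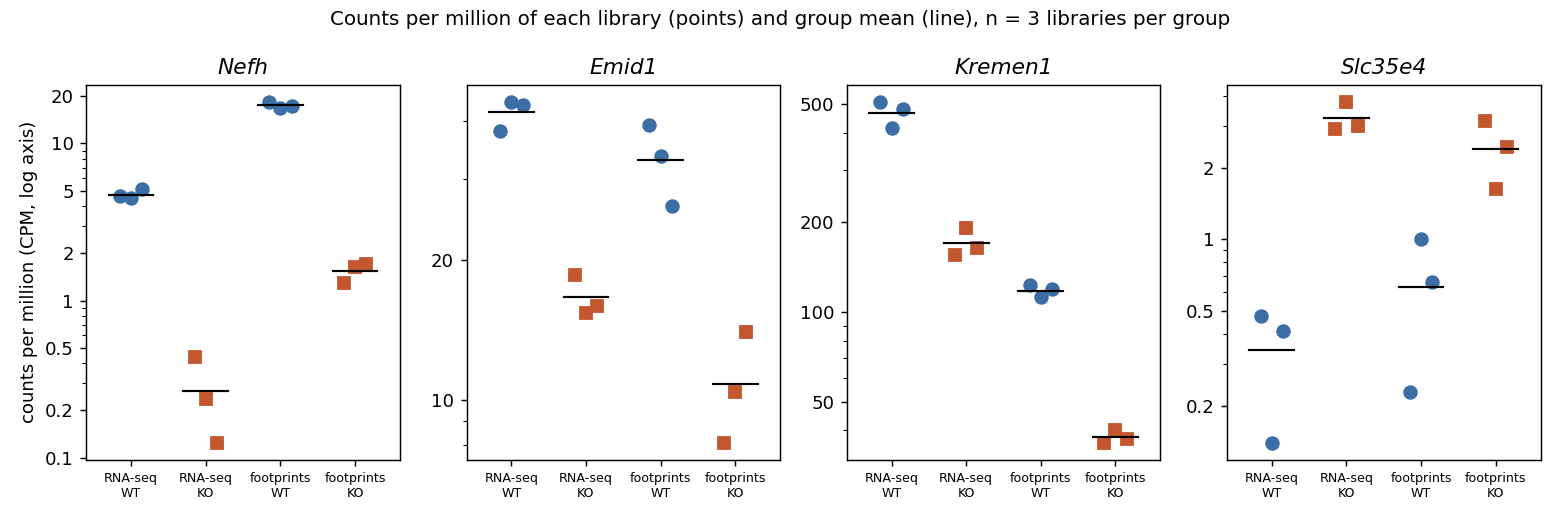
Level of each gene in CPM on log axes, 1 point per library and a line at the arithmetic mean of 3 libraries; circles are WT and squares KO, libraries 1 to 3 from left to right. Nefh, Emid1 and Kremen1 lie lower and Slc35e4 higher in all KO libraries of both assays, as for Nefh footprints at 1.30 to 1.72 CPM against 16.7 to 18.3 CPM.

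All 4 genes showed no overlap between genotypes in either assay, which is part of how they were found. The same held for 30.9% of all genes tested in RNA-seq (15.4% lower and 15.5% higher in KO) and 38.1% in footprints (19.6% lower and 18.5% higher). In the edgeR fits, all 4 were called in both assays at a false discovery rate (FDR) under 0.05, beside 6.91% of all genes in RNA-seq (3.43% lower and 3.48% higher in KO) and 17.6% in footprints (8.34% lower and 9.25% higher). Those calls follow from the choice of the genes and are no test of them. Slc35e4 in footprints lay just inside the threshold: it stayed inside in 1 of 6 omissions of a library, the one without WT library 2. The nearest neighbours outside it were Ascc2 in RNA-seq (log2 fold change -0.34) and Nipsnap1 in footprints (-0.21). The authors' deposited table gives log2 fold changes in RNA-seq of -1.03 for Nefh, -1.09 for Emid1, -1.33 for Kremen1 and 0.73 for Slc35e4. For footprints, the authors' deposited table gives -2.22, -1.21, -1.52 and 0.46 in the same order. These are smaller in size than the values fitted here for every one of the 4, and the gap is widest for Nefh and Slc35e4, the genes with few reads. The authors' fold changes look shrunken towards 0, which no file header states, so the sizes are not on like scales. For Slc35e4 the authors' deposited table holds no adjusted p in RNA-seq, and lists the gene as higher in footprints.

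The difference of the KO effect between assays, footprints minus RNA-seq on the log2 scale, was 0.60 (SE 0.41) for Nefh, -0.38 (SE 0.25) for Emid1, -0.17 (SE 0.13) for Kremen1 and -1.33 (SE 0.77) for Slc35e4. For Nefh it moved to 1.23 without RNA-seq KO library 1. It is built from the contrasts that chose the genes and carries no test; over all genes, edgeR called 0.211% for this difference, 0.135% higher and 0.0759% lower in footprints. For Kremen1 the footprint loss was close to the RNA loss, as its place near the diagonal shows in the plot of one assay against the other. Emid1 and Slc35e4 lay below that line and Nefh above it, each with a wide error. For Emid1 the counting intervals of the KO to WT ratio did not meet, at 0.351 to 0.456 in RNA-seq and 0.260 to 0.334 in footprints. Those intervals leave out the spread between libraries.

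**Figure D2:**
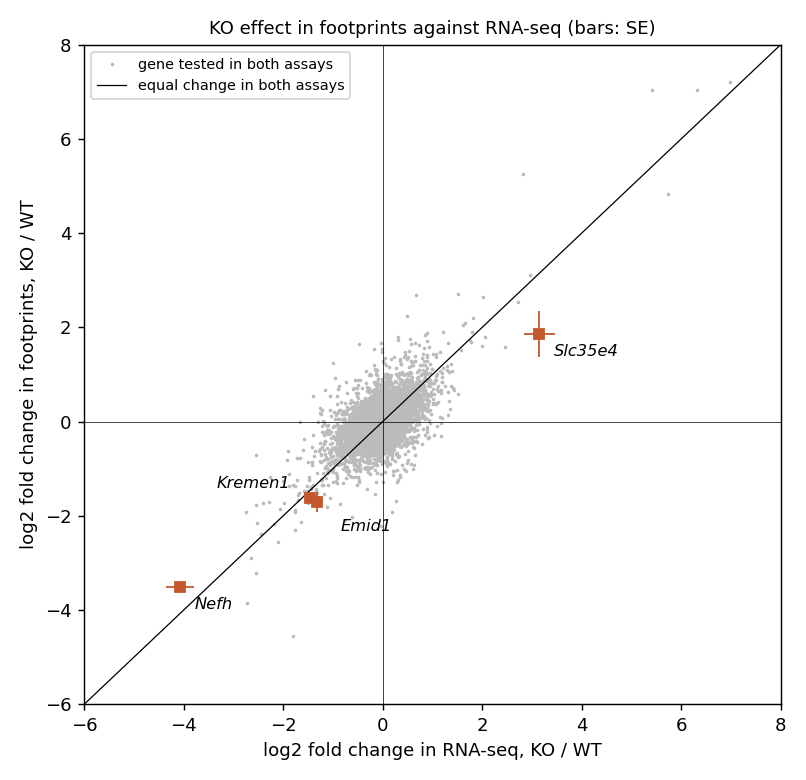
Log2 fold change KO against WT in footprints (y axis) against RNA-seq (x axis) for 11854 genes tested in both assays (grey points, 6 of them beyond the axes), with the 4 genes as squares and bars of 1 SE. Nefh at -4.08 and -3.51 and Slc35e4 at 3.15 and 1.85 lie at the outer ends of the cloud.

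Footprints against RNA-seq within 1 genotype is not the contrast that chose the genes, but it uses the same libraries. It was fitted with edgeR over all genes. Nefh could be tested only in WT and Slc35e4 only in KO, the genotype where each was higher. The FDRs of the 4 genes are therefore not independent of their choice and serve as a description. It gives the share of a gene's reads in footprints relative to its share in RNA-seq, which combines ribosome load with the ways the libraries were made. The counts of each assay were deposited and adjusted separately. In WT, 85.2% of 14385 genes differed between assays and the median log2 ratio was -0.34, so a call by itself is common: 33.9% were higher and 51.3% lower in footprints. Nefh was higher in footprints, with a log2 ratio of 1.85 (SE 0.14, FDR 1.23e-08), above 93.1% of genes. Kremen1 was lower in footprints, at -2.02 (SE 0.09, FDR 4.37e-11), above only 19.4% of genes. Emid1 lay in the middle at -0.36 (SE 0.13, FDR 0.0174), above 49.5% of genes. That call was lost without RNA-seq WT library 2 (-0.31, FDR 0.0685), without RNA-seq WT library 3 (-0.33, FDR 0.0547) and without footprint WT library 3 (-0.23, FDR 0.0658). Slc35e4 had too few WT reads to be tested.

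In KO, 83.7% of 13775 genes differed between assays, around a median of -0.25, 35.5% higher and 48.3% lower in footprints. Kremen1 kept nearly its WT ratio, at -2.12 (SE 0.09, FDR 7.58e-11), and Emid1 stood at -0.67 (SE 0.17, FDR 0.00225) in the edgeR fit. Slc35e4 had a log2 ratio of -0.41 (SE 0.29, edgeR FDR 0.207), which became -0.74 (FDR 0.0423) without footprint KO library 1. Nefh had too few KO reads in RNA-seq to be tested. Of Nefh, Emid1 and Kremen1, the 3 of the 4 genes that could be tested in WT, Nefh had the highest and Kremen1 the lowest ratio of footprints to RNA; neither was at an extreme of all genes.

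The order of genes along chromosome 11 shows that the 4 are not side by side. Counting protein-coding genes from Nefh in RefSeq order, Emid1 is the sixth and Kremen1 the eighth on one side, and Slc35e4 lies 24 genes away on the other. From the first to the last of the 4 there are 33 protein-coding genes. Annotated spans overlap at Nefh with Ap1b1 and Gm35321, at Emid1 with Gm39572 and Gm46266, and at Kremen1 with Gm25142 and Gm46268. The strand setting of the counting is not given in the sources used here, so reads in shared stretches cannot be assigned to one gene with certainty.

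Most genes between and around the 4 that could be tested differed little. Genes with too few reads to be tested are not covered by this statement. The neighbourhood was taken as 53 protein-coding genes, from 10 genes before Slc35e4 to 10 genes after Kremen1; 52 were matched to the count tables. Leaving out the 4, 30 were tested in RNA-seq and 7 were called by edgeR, 3 higher and 4 lower, or 23.3% beside 6.91% over all genes. Their median log2 fold change was -0.10. In footprints 8 of 32 were called, 2 higher and 6 lower, or 25% beside 17.6%. Their median was -0.11. The count in RNA-seq fell with any library left out: without WT library 2 or KO library 1, a single neighbour was called, and at most 3 without any other. Calls over all genes fell too, from 943 to between 215 and 323 in RNA-seq and from 2376 to between 1035 and 1554 in footprints. The same holds for the omissions given for gene lists below. Summed over the neighbours, RNA-seq gave 1723 ± 14.7 CPM for WT and 1613 ± 21.6 CPM for KO, and footprints gave 2058 ± 77.8 against 1983 ± 77.8 CPM (SD, n = 3). Of the tested neighbours, 1 in each assay differed by more than 2-fold: Hormad2 in RNA-seq and Tcn2 in footprints.

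Direct neighbours of Nefh, Emid1 and Kremen1 differed little. Nefh sits between Thoc5, a part of the THO complex of mRNA export, and Ap1b1, a subunit of the AP-1 clathrin adaptor. Thoc5 had log2 fold changes of -0.08 in RNA-seq and 0.01 in footprints, neither passing the test. Ap1b1 fell by 0.36 in RNA-seq (edgeR FDR 0.0346), a call lost without any single library, and by 0.35 in footprints (FDR 0.00386). Beside Emid1, Rhbdd3 had values of -0.14 and -0.28 that did not pass. Beyond Kremen1, Znrf3, a ubiquitin ligase that clears Frizzled receptors, stood at -0.21 in both assays (edgeR FDR 0.0641 and 0.332). The large losses at Nefh, Emid1 and Kremen1 were thus next to genes with small differences or none that passed. Gm39572 lies between Emid1 and Kremen1 and was not matched.

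Next to Slc35e4, however, Tcn2 rose too. Tcn2 encodes transcobalamin, the carrier of vitamin B12 into cells. Its footprints were 41.0, 40.2 and 36.2 CPM in WT and 87.3, 89.1 and 98.2 CPM in KO. Its RNA-seq level was 7.79, 8.65 and 7.85 CPM in WT and 13.9, 12.8 and 14.0 CPM in KO. The groups were well apart in both assays, with log2 fold changes of 1.21 (SE 0.07, edgeR FDR 0.00026) in footprints and 0.75 (SE 0.09, FDR 0.00824) in RNA-seq. Tcn2 passed with each library left out in turn. On the other side of Slc35e4, Dusp18 had 8 reads in RNA-seq and 2 in footprints over all libraries.

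Hormad2, a meiotic gene with a HORMA domain that lies 9 genes from Nefh, had the largest change among the tested neighbours. It had 0, 1 and 2 reads in the WT and 11, 8 and 12 reads in the KO libraries of RNA-seq. The log2 fold change was 3.33 (SE 0.47, edgeR FDR 0.014); this fitted value of a gene with 1 WT library at 0 depends on the prior count. The call was lost without WT library 2 or KO library 1, with an FDR of at most 0.0636. Its footprints, 3, 3 and 0 reads in WT and 8, 12 and 5 in KO, were too few to be tested.

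The other called neighbours moved less. Pes1, a ribosome biogenesis factor, fell by 0.61 in RNA-seq (edgeR FDR 0.0312) and by 0.35 in footprints (FDR 0.00886). Mrps24, a mitochondrial ribosomal protein, fell by 0.60 and 0.72 (FDR 0.0319 and 0.00683). In RNA-seq, Sf3a1, a splicing factor, fell by 0.33 (edgeR FDR 0.0286) and Nipsnap1 rose by 0.48 (FDR 0.024). In footprints, Ccdc157 fell by 0.79 (FDR 0.0188), Smtn, which encodes smoothelin, by 0.46 (FDR 0.0136) and Morc2a by 0.21 (FDR 0.00792), and Rnf185 rose by 0.24 (FDR 0.0412). Among these, Pes1, Mrps24 and Morc2a in footprints passed with every library left out, and the others lost the call without at least 1 library.

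**Figure D3:**
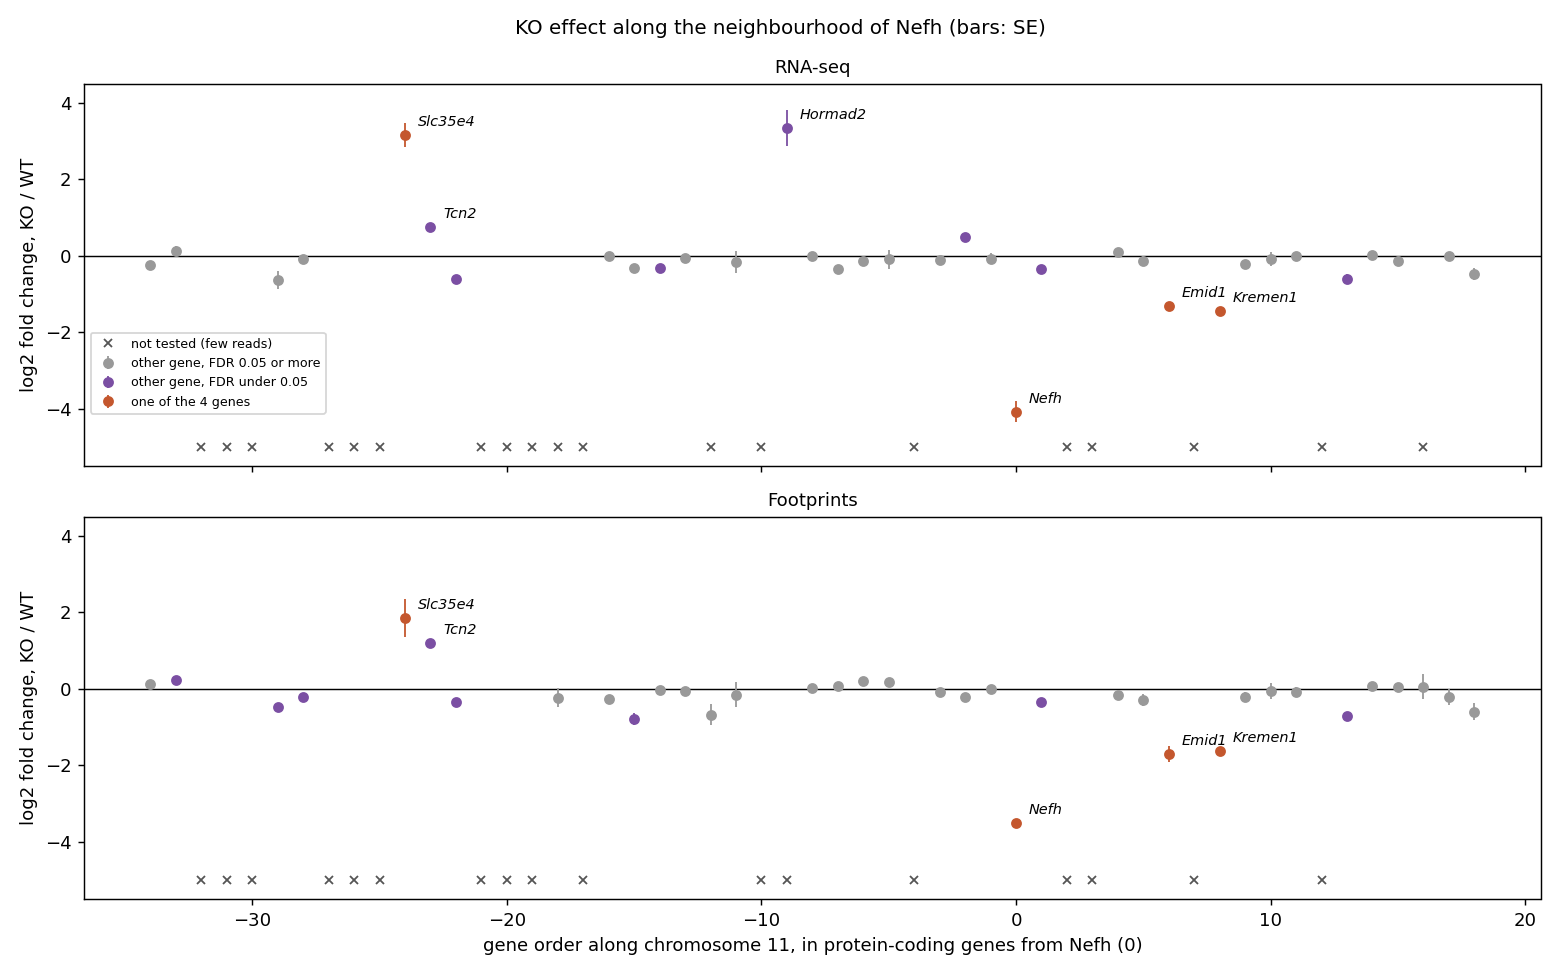
Log2 fold change KO against WT (y axis, bars 1 SE) by gene order along chromosome 11 (x axis, protein-coding genes counted from Nefh at 0), RNA-seq above and footprints below; crosses mark genes not tested. Nefh, Emid1 and Kremen1 drop out of a line of genes near 0, while Slc35e4 and Tcn2, and Hormad2 in RNA-seq, stand above it.

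Relatives of Nefh were examined in a list of 20 further intermediate filament genes and linkers. In RNA-seq 11 were tested and 4 were called, 2 higher and 2 lower, with a median log2 fold change of -0.33; over all genes 6.91% were called. Vim, the filament protein vimentin, fell from 140 ± 7.57 to 91.6 ± 5.58 CPM (-0.61, edgeR FDR 0.00758), and Krt5, a keratin of epithelial cells, fell from 5.28 ± 0.58 to 2.48 ± 0.51 CPM (-1.07, FDR 0.0228; SD, n = 3). Dst and Macf1, large linkers of filaments to other parts of the cytoskeleton, each rose by 0.26 (FDR 0.0461 and 0.0469). With 1 library left out, 1 or 2 of the list were called. In footprints 16 were tested and 3 fell, near the share of 17.6% called over all genes, with a median of -0.16: Krt14 by 1.02 (FDR 0.00489), Vim by 0.42 (FDR 0.0132) and Macf1 by 0.30 (FDR 0.00689). The other neurofilament subunit that could be tested, Nefm in footprints, had a log2 fold change of -0.44 (SE 0.18, FDR 0.316).

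Around Kremen1, 35 further genes of Kremen, Dickkopf and Wnt reception were examined. In RNA-seq 11 were tested and 1 was called, beside 6.91% of all genes. It was Fzd3, a Frizzled receptor, which fell by 1.19 (edgeR FDR 0.035), and that call was lost without any single library. In footprints 13 were tested and 4 called, beside 17.6% of all genes, with 1 to 3 called when 1 library was left out. Wls, which carries Wnt proteins to the surface for secretion, rose from 116 ± 4.88 to 167 ± 6.85 CPM (0.53, FDR 0.0017). Rnf43, a ligase that removes Frizzled receptors, fell by 1.01 (FDR 0.0126), Fzd10 by 0.74 (FDR 0.0253) and Lrp5 by 0.14 (FDR 0.0491). Lrp6, the co-receptor that Kremen1 acts on with Lrp5, had differences of -0.01 in RNA-seq and -0.09 in footprints (FDR 0.976 and 0.164). Median log2 fold changes over the tested genes were -0.13 and -0.14.

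Inside the Wnt pathway, 22 of 24 listed genes were tested in each assay. In RNA-seq 3 were called, beside 6.91% of all genes, and in footprints 4, near the 17.6% of all genes. In RNA-seq these fell: Gsk3a, a kinase that marks beta-catenin for removal, by 0.46 (edgeR FDR 0.0426), Tcf7, the T cell factor TCF1, by 0.26 (FDR 0.0477), and Ctnnb1, beta-catenin, by 0.22 (FDR 0.0461). All 3 calls were lost without any single library. In footprints Ctnnb1 again fell by 0.23 (FDR 0.00825), Apc fell by 0.21, Myc fell by 0.19, and Btrc rose by 0.22 (FDR 0.0161). Medians were -0.11 and 0.02. Axin2, widely used as a readout of Wnt signalling, had -0.48 in RNA-seq and -0.38 in footprints (FDR 0.0831 and 0.0704), which did not pass.

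Of 14 further EMI-domain genes, relatives of Emid1, 6 were tested in RNA-seq, with a median log2 fold change of -0.02, and 10 in footprints, with a median of 0.06. Of these, 0 were called in RNA-seq and 1 in footprints, beside 6.91% and 17.6% of all genes. Emilin1, an elastic fibre protein, rose in footprints from 48.1 ± 0.87 to 57.1 ± 0.98 CPM (0.24, edgeR FDR 0.00816); in RNA-seq it stood at 0.15 (FDR 0.66). Of 26 further SLC35 transporters, 19 were tested in RNA-seq and 4 called, 2 in each direction, beside 6.91% of all genes, led by Slc35g1 at 0.72 (FDR 0.0159) and Slc35f6 at -0.54 (FDR 0.0359). In footprints 6 of 20 were called, 2 higher and 4 lower, beside 17.6% of all genes. Slc35b1 was the transporter called in both assays, at -0.30 (FDR 0.0499) and -0.50 (FDR 0.00603). Its RNA-seq call, like that of Slc35f6, was lost without any single library, and its footprint call was kept in every omission. The closest relatives by name, Slc35e1, Slc35e2 and Slc35e3, stood at -0.13, -0.23 and 0.10 in RNA-seq, short of the threshold (FDR 0.208, 0.0757 and 0.724). In footprints Slc35e2 fell by 0.29 (FDR 0.0104). With 1 library left out, 0 or 1 of the SLC35 list was called in RNA-seq and 1 to 3 in footprints.

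Markers of other cells were set beside these values because Nefh is known from neurons and Kremen1 for a part in the development of thymic epithelium. The summed RNA-seq level of 12 markers of neurons and Schwann cells was 209 to 212 CPM in the WT and 212 to 219 CPM in the KO libraries. In footprints it was 121 to 138 against 129 to 148 CPM. Of these markers, Snap25 and Sox10 were at 0 in all RNA-seq libraries, and Nefl and S100b also in KO. That sum was mostly Mbp, a myelin gene (204 ± 1.68 against 209 ± 2.67 CPM in RNA-seq, 116 ± 9.35 against 128 ± 10.3 CPM in footprints; SD, n = 3). Tubb3, a neuronal tubulin, fell in footprints from 9.94 ± 0.42 to 7.76 ± 0.34 CPM (-0.34, edgeR FDR 0.0316) and stood at -0.98 in RNA-seq (FDR 0.218). The median over the 4 markers tested in each assay was 0.04 in RNA-seq and -0.38 in footprints. Of these, 0 were called in RNA-seq and 1 in footprints (Tubb3), beside 6.91% and 17.6% of all genes. A list of 10 markers of thymic epithelium summed to 97.0 to 115 CPM in the WT and 91.7 to 107 CPM in the KO libraries of RNA-seq, and to 209 to 265 against 194 to 253 CPM in footprints. Those ranges overlapped, and Kremen1 alone stood at 466 ± 47.9 CPM in WT RNA-seq. Of 8 epithelial markers tested in RNA-seq, 1 fell (Krt5), beside 6.91% called over all genes. Of 10 tested in footprints, 2 fell (Krt14 and Epcam), near the 17.6% called over all genes. Median log2 fold changes were -0.29 and -0.15. In RNA-seq, endothelial markers (170 to 177 against 203 to 213 CPM) and B cell markers (237 to 271 against 287 to 330 CPM) lay higher in every KO library, and erythroid markers lower (76.7 to 91.9 against 46.6 to 58.9 CPM). The endothelial sum was mostly Pecam1 and the B cell sum mostly Ighm. In footprints the B cell and erythroid ranges overlapped, and the endothelial ranges did not (145 to 150 against 156 to 161 CPM). Single genes showed no overlap in 30.9% of all tested in RNA-seq and 38.1% in footprints. Fibroblast and pericyte sums overlapped in both assays. Of these markers, 1 of 5 tested in RNA-seq was called (Pdgfrb, higher), beside 6.91% of all genes. In footprints 2 of 8 were called (Pdgfrb higher, Acta2 lower), beside 17.6%. Macrophage and dendritic cell markers summed to 84.6 to 97.4 against 73.3 to 87.0 CPM in RNA-seq and 280.1 to 319.9 against 256 to 299.4 CPM in footprints. Of 10 tested there, 1 fell in RNA-seq (Siglech), near the 6.91% called over all genes. In footprints 3 fell (Siglech, Mertk and C1qa), beside 17.6% called over all genes. Median log2 fold changes were -0.31 and -0.18, and Lyz2 stood at 0.15 and 0.14. Of the 12 thymocyte markers, 0 were called in RNA-seq and 4 in footprints, beside 6.91% and 17.6% of all genes. In footprints Cd4 (0.57, edgeR FDR 0.00335) and Themis (0.23, FDR 0.0326) were higher in KO. Rag1 (-0.30, FDR 0.00866) and Ptcra (-0.37, FDR 0.0293) were lower. With the replicate block, Cd4 alone of the thymocyte markers was called. The part of any of these cell types in the differences at the 4 genes was not tested.

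The genes most like each of the 4 across the 12 libraries, each assay centred on its own mean, were ranked by Pearson correlation over 11854 genes. These libraries share the genotype split and the adjustment of the counts, and no test is given. Nefh was followed most closely by Esrp2 (0.993), Lonrf1 (0.990) and Cd7 (0.988). Kremen1 was closest to Gm19705 (0.996), Daam1 (0.994) and Slc41a1 (0.993). Pkp1 and Mbtps1 (both 0.987) were among the genes closest to Emid1. Slc35e4 was closest to Uaca (0.968), Ppil3 (0.967) and Pecam1 (0.960). Among the 4 themselves, Nefh, Emid1 and Kremen1 correlated at 0.95 to 0.97, and Slc35e4 ran against them at -0.90 to -0.87.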

How the data were processed

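RNA-seq and ribosome footprinting of thymocytes gave 12 libraries, grouped by the assay, genotype and replicate number in their labels. The authors deposited 1 table of whole-number read counts per gene for each assay, named as adjusted with no account of the adjustment; rows for reads outside genes were left out. The submitters' processing notes name FastQC, Bowtie2 2.5.1, STAR 2.7.10a, HTSeq 2.0.3 and DESeq2 1.40.2; the sources used here name no genome build, no annotation and no strand setting. Log2 fold changes and adjusted p-values of the authors' deposited tables were copied, and 12 columns of per-library values in those tables were not used. Reads in no annotated feature made up 50.9% to 57.1% of RNA-seq counts.

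Each assay was fitted with edgeR 4.0.16 in R 4.3.3: TMM factors, filterByExpr (minimum count 10), and quasi-likelihood tests with Benjamini-Hochberg adjustment over all genes tested. Genes at an FDR under 0.05 were called. Footprints were compared with RNA-seq within each genotype, and the genotype-by-assay interaction used all 12 libraries, with TMM within each assay. CPM are reads scaled to the TMM-adjusted library total. The SE is the log2 fold change divided by the root of F. Replicate numbers were not taken to pair the libraries, since no label says what they share. Symbols were matched for 54587 IDs by version, 567 without it and 6 from the authors' tables; 175 had none. Gene order came from RefSeq GRCm38.p6. The fits were tested on simulated data with independent libraries. Those data lack the opposite deviations of same-numbered libraries, so they do not test the fits under them.

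The 4 genes and all gene lists were chosen with earlier results of these data known. Named genes were the 4, their direct neighbours, the called neighbours, up to 4 called genes of each family list with the largest changes, and the 3 most correlated genes for each of the 4; Nefm, Lrp5, Lrp6, Axin2, Dst, Apc, Myc, Epcam, Ascc2 Slc35e1 to Slc35e3 and single cell type markers were named after seeing their values. Some genes that these rules name are not reported here. Tried as alternatives were RLE factors, DESeq2 1.42.0, no filter, a replicate block, a joint fit, an FDR of 0.1, windows of 5 and 20 genes and the omission of each library.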

Additional observations from a re-analysis of the deposited data

Results flagged for a closer look

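The KO effect differed between footprints and RNA-seq by the interaction test for Nipsnap1, the mitochondrial protein gene that lies next but one to Nefh. It was 0.48 in RNA-seq and -0.21 in footprints, a difference of -0.69 (SE 0.11, edgeR FDR 0.0221). In that test 25 of 11854 genes (0.211%) were called. With a library left out, Nipsnap1 passed in 2 of 12 omissions, with an FDR of up to 0.0891. With the replicate number as a block its FDR was 0.998.

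Macf1, a cytoskeletal linker, differed in the same way: 0.26 in RNA-seq and -0.30 in footprints, a difference of -0.56 (SE 0.08, edgeR FDR 0.0179). It passed in 8 of 12 omissions, and was lost without footprint WT library 1 or 2 or footprint KO library 1 or 2, with an FDR of up to 0.077. With the block its FDR was 0.998.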

How the results depend on the processing

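The log2 fold changes of Nefh, Emid1, Kremen1 and Slc35e4 kept their direction in both assays under every alternative that was run. Nefh in RNA-seq ranged from -4.70 to -3.64 with 1 library left out. Counts of calls depended on the processing. In RNA-seq, 943 called genes became 532 with DESeq2, 110 with the replicate block, 1742 at an FDR of 0.1, 1508 in the joint fit and 215 to 323 with 1 library left out. In footprints, 2376 became 1238 with DESeq2, 408 with the replicate block and 1035 to 1554 with 1 library left out. For the interaction, 25 became 54 with DESeq2, 272 with no filter, 2 with the replicate block and 6 to 24 with 1 library left out. Neighbours called besides the 4 genes went from 7 to 2 with DESeq2, 0 with the replicate block and 1 to 3 with 1 library left out in RNA-seq. In footprints they went from 8 to 5 with DESeq2, 2 with the replicate block and 6 to 8 with 1 library left out. The cause of these shifts was not tested, apart from the smaller number of libraries in the omissions. No label says what libraries of one number share, so pairing was not assumed; same-numbered libraries deviate in opposite directions (correlations of -0.96 to -0.92 in RNA-seq and -0.99 to -0.98 in footprints), and whether the authors' adjustment removed a shared effect was not tested. With the replicate block, Slc35e4 in footprints lay outside the threshold, and the FDR in RNA-seq was 0.197 for Tcn2 and 0.0737 for Vim. Windows of 5 and 20 genes gave 7 of 24 and 7 of 41 neighbours called in RNA-seq, and 7 of 25 and 12 of 43 in footprints. Depth limits Nefh in KO RNA-seq (5 reads) and Slc35e4 in WT (7 reads in RNA-seq, 29 in footprints).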
